A study of Mus musculus with 6 samples.

Results

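The cathepsins and legumain are the main proteases of the lysosome, and 10 of their genes were followed here in cells sorted from mouse retina: Ctsa, Ctsb, Ctsc, Ctsd, Ctsh, Ctsk, Ctsl, Ctss, Ctsz and Lgmn. They were taken by symbol, and all 10 were found among 21851 genes in the count table. All 10 were also among the 13477 genes that passed the filter on low counts. The study set 3 libraries with the genotype CD36 CKO (Cd36, a scavenger receptor gene, conditionally deleted) against 3 with the genotype CD36 flox, animals that the protocol calls wildtype. Cells with intermediate CD11b and positive CD45, which the labels call microglia, were sorted from dissociated retinae for full-length (Smart-seq2) RNA libraries. The protocol describes sodium iodate at 20 mg/kg or buffer alone, injected into a vein 7 days before collection, but the labels give neither the treatment of each library nor the Cre driver, the age or the strain. The study's title concerns lipid-laden reactive microglia and inflammasome signalling, and the comparison asks of these genes whether the lysosomal protease transcripts of the sorted cells differ when Cd36 is deleted.

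Most of these enzymes are made as inactive proenzymes, are carried to the lysosome by mannose 6-phosphate receptors and become active in its acid interior. Cathepsins B, C, H, K, L, S and Z are cysteine proteases of the papain family, cathepsin D is an aspartic protease, cathepsin A is a serine carboxypeptidase, and legumain cuts after asparagine and helps to process other cathepsins. In microglia they digest phagocytosed material, and in antigen-presenting cells they trim the invariant chain and antigens for MHC class II. Cathepsin B released from damaged lysosomes has been linked to activation of the NLRP3 inflammasome in macrophages.

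Several libraries stood apart or went against their labels. Cd36 itself stood at 122, 65.2 and 28.5 CPM (TMM-scaled CPM, a count relative to the library total, corrected for library composition) in the libraries labelled CKO 1, 2 and 3, against 90.5, 193 and 144 CPM in the 3 libraries labelled flox. Cd36 was thus higher in the library labelled CKO 1 than in that labelled flox 1, and all directions given here refer to the labels. Haemoglobin transcripts summed to 1930.0 CPM in CKO 1, 4240.0 CPM in flox 2 and 1760.0 CPM in flox 3, but to at most 0.339 CPM in CKO 2, CKO 3 and flox 1, and these 2 sets of 3 are called haemoglobin-positive and haemoglobin-negative. CKO 2 and CKO 3 share a description code, as do flox 2 and flox 3, and differ in it only by OD and OS, so that each pair can be both eyes of 1 mouse. Then each haemoglobin class holds 1 mouse of each label, the p-values, which treat the 6 libraries as independent, are too small, and class and mouse cannot be told apart. Of 11 microglial markers 10 were in the table, and all 10 were counted in every library, with sums of 6210.0 to 9680.0 CPM in CKO and 6570.0 to 10200.0 CPM in flox. Rod photoreceptor markers summed to 6050.0 to 17000.0 CPM in CKO and 6660.0 to 14300.0 CPM in flox, so the sorted material also held retinal RNA. In such bulk libraries fewer cells of a type and less RNA per cell cannot be told apart.

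The sequences before the RefSeq starts of some of these genes carry CACGTG, the E-box core bound by TFEB, TFE3 and MITF, which regulate lysosomal genes, and are shown for that reason. Sequences are from RefSeq (GRCm38.p6), 5′ to 3′ on the strand of the gene, with CACGTG in capitals. The first line covers the 250 bases before the RefSeq start of Ctsd (chr7:142387828-142388077, minus strand), the next 2 cover the last 60 bases before a RefSeq start of Ctsa (chr2:164833713-164833772, plus strand) and of Lgmn (chr12:102439093-102439152, minus strand), and the fourth covers a more distant stretch of 60 bases before Ctsl (chr13:64370711-64370770, minus strand). The last shows Ctss, the most abundant member, without the motif (chr3:95526726-95526785, plus strand). RefSeq and GENCODE place some starts differently: within the GENCODE gene bounds given further on lie 211 of the 250 bases of Ctsd, all 60 bases of Ctsa, Lgmn and Ctsl, and 0 of Ctss.
Ctsd: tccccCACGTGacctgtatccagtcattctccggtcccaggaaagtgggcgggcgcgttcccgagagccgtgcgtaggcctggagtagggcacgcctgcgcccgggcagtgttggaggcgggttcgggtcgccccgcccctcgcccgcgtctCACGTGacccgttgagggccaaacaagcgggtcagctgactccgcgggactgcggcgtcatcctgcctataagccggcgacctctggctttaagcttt
Ctsa: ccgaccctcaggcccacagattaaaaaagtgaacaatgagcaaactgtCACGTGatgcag
Lgmn: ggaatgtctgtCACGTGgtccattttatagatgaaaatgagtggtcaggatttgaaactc
Ctsl: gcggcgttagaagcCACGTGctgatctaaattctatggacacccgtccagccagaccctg
Ctss: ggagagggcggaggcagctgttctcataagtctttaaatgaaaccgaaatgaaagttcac

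RefSeq promoter windows (250 bases before to 50 after a start) were available for 8 of the 10 members, in 10 windows. CACGTG, which reads the same on both strands, lay in 4 of the 10 member windows (Ctsa, Ctsd, Ctsl and Lgmn), against 7.15% of all 32851 windows. The longer TCACGTGA, which contains CACGTG and also reads the same on both strands, lay in 2 member windows (Ctsa and Ctsd), against 0.974% of all windows. In Ctsa it occurred at 13 bases before and 4 bases after the start, and in Ctsd at 99 bases before the start. GAGGAAGT, a core of the site of the myeloid factor PU.1 that was searched on both strands, lay in 2 member windows (Ctsc and Ctss), against 3.20% of all windows. These matches describe letters in these windows only.

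Gene positions are from GENCODE M21 (GRCm38). On the plus strand are Ctsa (chr2:164832873-164841032), Ctsb (chr14:63122462-63145923), Ctsc (chr7:88278085-88310888), Ctsh (chr9:90054152-90076089), Ctsk (chr3:95499256-95509362) and Ctss (chr3:95526786-95556403). On the minus strand are Ctsd (chr7:142375911-142388038), Ctsl (chr13:64359337-64370890), Ctsz (chr2:174427493-174439039) and Lgmn (chr12:102394084-102439813).

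Some cathepsin transcripts were among the most abundant in the sorted cells. The 10 genes held 1.96%, 3.46% and 2.54% of all counts in CKO 1, 2 and 3, against 2.30%, 2.98% and 2.87% in flox 1, 2 and 3. Their summed level was 28186 ± 9926 CPM in CKO and 25998 ± 3616 CPM in flox (SD, n = 3 each), and the CKO libraries spanned the whole flox range. Between 4 and 6 members ranked among the 100 most abundant genes of a library by CPM, which takes no account of transcript length. Per kilobase of the principal transcript Ctss ranked 7 to 20 over the libraries, Ctsd 24 to 143 and Lgmn 75 to 140. The other members then lay outside the first 100 in every library.

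Levels of different genes were compared per kilobase of the principal transcript. Ctss, the cysteine endopeptidase that makes the last cuts in the invariant chain in antigen-presenting cells, stood first at 7708 ± 2708 CPM per kb (SD over 6 libraries). Ctsd (2072 ± 929.7) and Lgmn (1302 ± 252) followed. Ctsz, a carboxypeptidase also called cathepsin X, stood at 979 ± 176 CPM per kb, Ctsb, an endopeptidase and dipeptidase, at 963 ± 284, Ctsc, a dipeptidyl peptidase, at 734 ± 142 and Ctsh, an aminopeptidase, at 634 ± 150. Ctsl, an endopeptidase, stood at 241 ± 90.4, Ctsa at 148 ± 34.5 and Ctsk, the collagen-degrading cathepsin of osteoclasts, at 0.708 ± 0.736 CPM per kb.

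The steps from Ctss to Ctsd, Lgmn to Ctsz, Ctsh to Ctsl, Ctsl to Ctsa and Ctsa to Ctsk held in 6 of 6 libraries. Ctsd exceeded Lgmn in 5 of 6, the exception being flox 1. Ctsz over Ctsb, Ctsb over Ctsc and Ctsc over Ctsh held in 4 of 6 libraries each, so these adjacent genes did not differ beyond their spread. Genes further apart in that run did keep their order, since Ctsz exceeded both Ctsc and Ctsh, and Ctsb exceeded Ctsh, in 6 of 6 libraries. These counts of libraries refer to the principal transcript. With the union of all annotated exons as length, Ctsa stood above Ctsl by mean level. Lgmn then stood at 1028 CPM per kb beside 979 for Ctsz, and that step no longer held in every library.

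**Figure D1:**
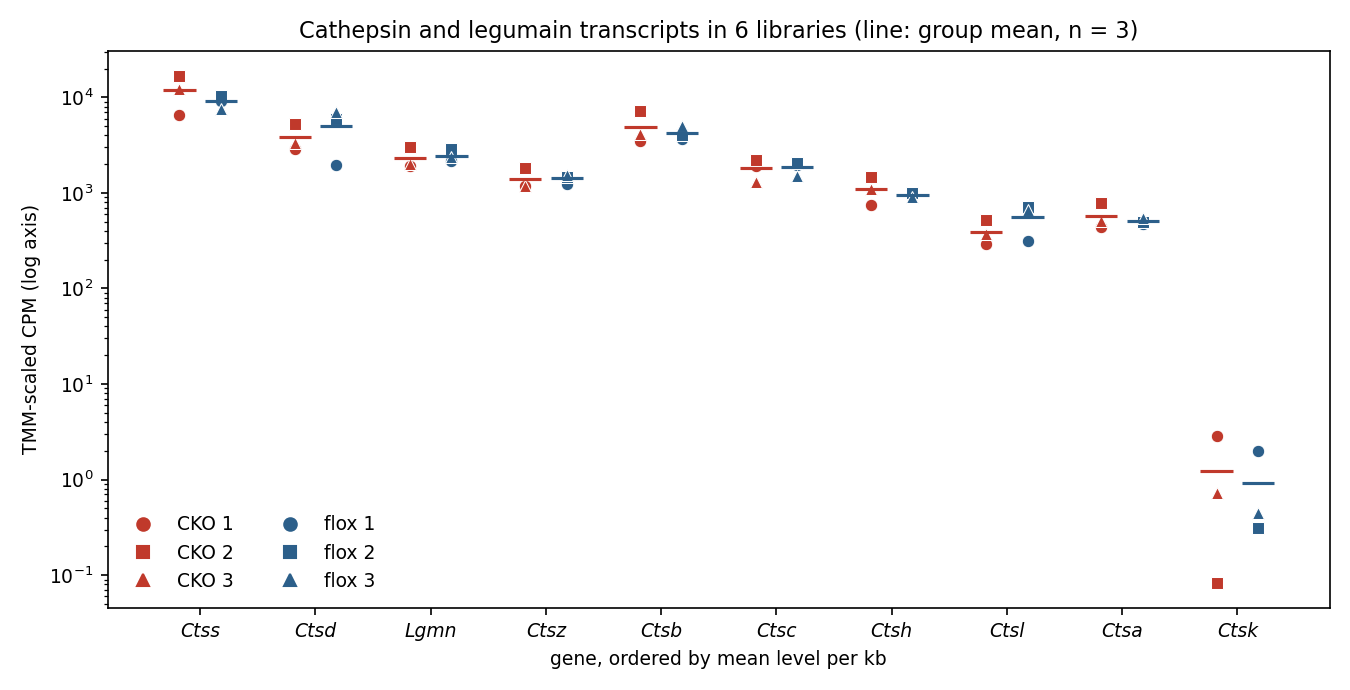
TMM-scaled CPM (log axis) of the 10 genes in each of the 6 libraries, CKO in red and flox in blue, with a line at each group's mean (n = 3). Genes run from the highest to the lowest mean level per kb, and the CKO and flox points overlap for every gene.

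Ctss was also the most abundant member by count, with 106752, 199321 and 238945 counts in CKO and 190316, 199679 and 119901 in flox. Its level was 6545, 16691 and 12285 CPM in CKO 1, 2 and 3, against 9217, 10347 and 7579.9 CPM in flox 1, 2 and 3. CKO 1 was the lowest and CKO 2 the highest of all 6, so the groups overlapped. By CPM it ranked 13, 4 and 5 in CKO and 8, 5 and 7 in flox among all genes. Per kb it ranked 20, 9 and 8 in CKO and 9, 7 and 11 in flox. It made up 46.9% to 60.7% of the summed CPM per kb of the 10 members in CKO and 40.1% to 55.7% in flox.

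Ctsd, the aspartic endopeptidase whose loss causes a lysosomal storage disease, varied most among the 9 abundant members (all but Ctsk). It stood at 2915, 5294 and 3297 CPM in CKO 1, 2 and 3, against 1944, 5976 and 7011 CPM in flox 1, 2 and 3. Flox 2 and flox 3 were the highest of the 6 libraries and flox 1 was the lowest, a 3.61-fold range between the highest and lowest library. By CPM it ranked 32, 21 and 31 in CKO and 58, 11 and 9 in flox. Per kb it ranked 95, 56 and 94 in CKO and 143, 32 and 24 in flox. Its share of the members' summed CPM per kb was 10.4% to 13.3% in CKO, and was 7.49% in flox 1, 17.8% in flox 2 and 23.7% in flox 3. Ctsl, an endopeptidase with substrates in common with Ctss, stood at 292, 514 and 369 CPM in CKO, against 312, 705 and 657 CPM in flox. As for Ctsd, the 2 highest libraries were flox 2 and flox 3, and here CKO 1 was the lowest.

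**Figure D2:**
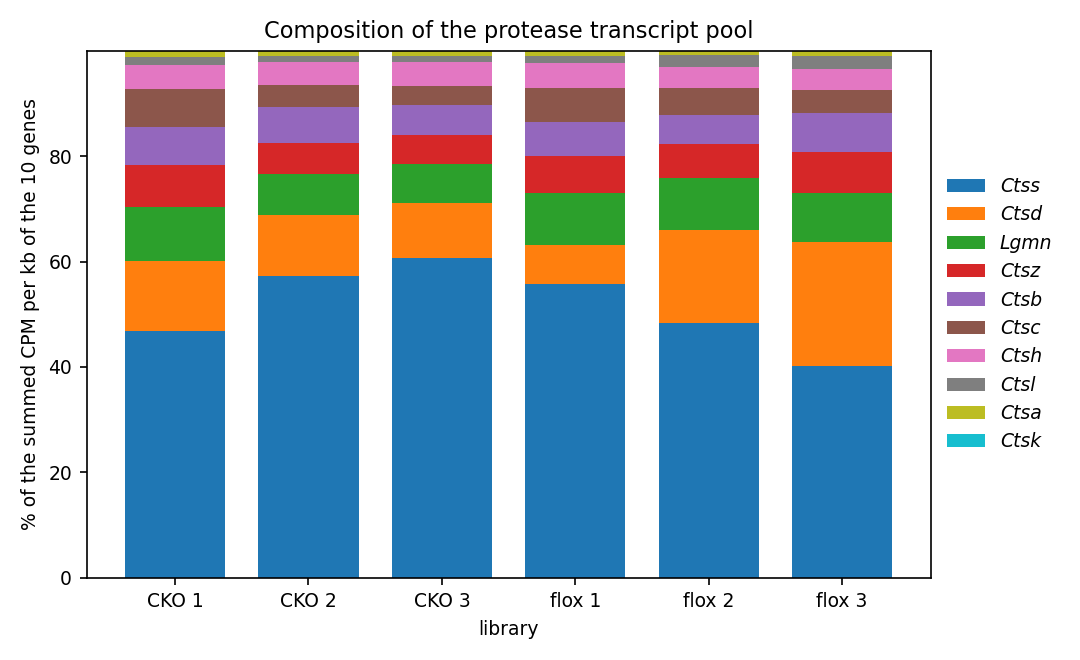
Percent of the summed CPM per kb of the 10 genes that each gene takes, by library (3 CKO, then 3 flox). The Ctss band is the tallest in every library, and the Ctsd band runs from 7.49% in flox 1 to 23.7% in flox 3.

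Some marker genes had the same high libraries as Ctsd and Ctsl. Markers of retinal pigment epithelium, a tissue rich in cathepsin D (5 of 5 in the table), summed to 3.25, 27.4 and 4.47 CPM in CKO 1, 2 and 3, against 4.02, 47.3 and 182 CPM in flox 1, 2 and 3. Their defining gene Rpe65 had no count in CKO 1 and flox 1, and 7.97 CPM in flox 3. It was lower in flox 2 (0.207 CPM) than in CKO 2 (1.09 CPM), and stood at 0.103 CPM in CKO 3. The flox 2 sum was mostly Ttr (37.7 CPM), and Rgr was nearly equal in flox 2 and CKO 2 (6.17 and 6.03 CPM). Sall1, a transcription factor gene of microglia, stood at 1.16, 1.84 and 1.54 CPM in CKO, against 0.969, 17.5 and 16.8 CPM in flox, so it was high in the same 2 flox libraries as Ctsd and Ctsl. The purinergic receptor gene P2ry12, another microglial marker, stood at 90.1, 139.0 and 110.0 CPM in CKO, against 82.4, 324 and 194 CPM in flox. Of the 10 microglial markers 5 had flox 2 and flox 3 as their highest libraries, Sall1 and P2ry12 among them, and the other 5 did not. The complement gene C1qa, which did not, stood at 2380.0, 3500.0 and 3370.0 CPM in CKO, against 2510.0, 2660.0 and 2190.0 CPM in flox. The part of these markers in the Ctsd and Ctsl levels was not tested.

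**Figure D3:**
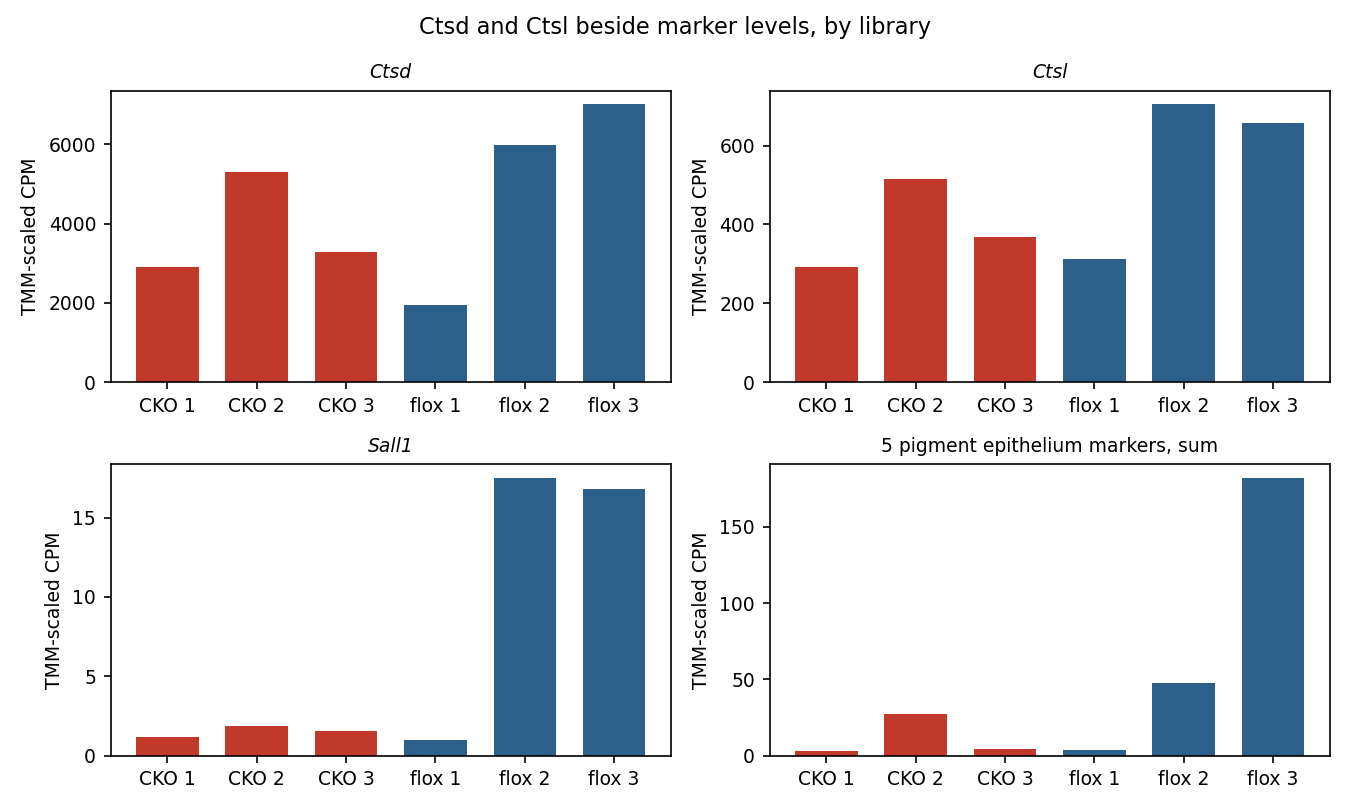
TMM-scaled CPM by library (bars, 3 CKO in red, then 3 flox in blue) of Ctsd, Ctsl, the microglial marker Sall1 and the sum of 5 pigment epithelium markers. Flox 2 and flox 3 are the tallest bars in all 4 panels.

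Lgmn, the asparaginyl endopeptidase, stood at 1913, 3050.2 and 1995 CPM in CKO, against 2179, 2846 and 2350.2 CPM in flox. Ctsz stood at 1189, 1820.1 and 1187 CPM in CKO, against 1239, 1481 and 1551 CPM in flox. For both genes CKO 2 was the highest library and the other CKO libraries lay under all flox values. Ctsz had the narrowest range of the 9 abundant members, 1.53-fold between its highest and lowest library.

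Ctsb stood at 3485, 7114 and 4113 CPM in CKO, against 3694, 4039.7 and 4969.5 CPM in flox. Ctsa, which also protects the sialidase NEU1 and β-galactosidase in a complex, stood at 439, 786 and 510.5 CPM in CKO, against 469, 491 and 549 CPM in flox. Ctsh stood at 756, 1465 and 1094 CPM in CKO, against 940.1, 994 and 898 CPM in flox. In all 3 genes CKO 2 was the highest library and CKO 1 the lowest. Ctsc, which activates granule serine proteases in neutrophils and cytotoxic lymphocytes, stood at 1892, 2233 and 1309 CPM in CKO, against 1971, 2079.8 and 1500.5 CPM in flox, with CKO 2 the highest and CKO 3 the lowest.

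Ctsk was near the detection limit. It had 47, 1 and 14 counts in CKO and 41, 6 and 7 counts in flox, where a count of 0 would allow up to 3 counts (counting error only). CKO 1 and flox 1 were the 2 highest libraries, and both groups held low values. Vascular markers (5 of 5 in the table) summed to 198 CPM in CKO 1 and 195 CPM in flox 1, against 41.1 to 103 CPM in the other libraries. In CKO 1 and flox 1 that sum was mostly Rgs5, at 164 and 119 CPM. Cldn5 stood at 34.7 CPM in flox 1, but was about the same in CKO 1 (16.0 CPM) and flox 2 (15.5 CPM). The part of these markers in the Ctsk level was not tested. Ctsk and Ctss are neighbours on chromosome 3 (GRCm38), with no annotated gene in the 17423 bases between the end of Ctsk (95509362) and the start of Ctss (95526786), and stood at the opposite ends of the order of levels.

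No member passed the test between CKO and flox. Of the 10 tested members 5 had a positive and 5 a negative log2 fold change (CKO over flox), where 50.6% of all tested genes were positive. Their median was 0.09, beside 0.00383 over all genes tested, and it was -0.19 without CKO 2 and 0.20 without CKO 3. The extremes among the abundant members were Ctss at 0.39 (SE 0.32) and Ctsl at -0.51 (SE 0.33), and Ctsd stood at -0.38 (SE 0.46). Every member had an adjusted p of 0.9996 (edgeR, Benjamini-Hochberg adjustment over all genes tested), and the smallest unadjusted p was 0.167 for Ctsl. edgeR called 0 of 13477 genes (0.00%) at an adjusted p under 0.05 and 379 (2.81%) had an unadjusted p under 0.05, while DESeq2 called 23 of 18094 (0.127%), of which 0 were members. The CKO and flox values did not overlap for 0 of the 10 members and for 1078 of the 13477 tested genes (8%).

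The other log2 fold changes were 0.20 (SE 0.23) for Ctsa, 0.21 (SE 0.28) for Ctsb, -0.03 (SE 0.23) for Ctsc, 0.23 (SE 0.24) for Ctsh, 0.43 (SE 1.20) for Ctsk, -0.03 (SE 0.22) for Ctsz and -0.08 (SE 0.23) for Lgmn. Leaving out CKO 2 turned Ctsb to -0.16, Ctsa to -0.087 and Ctsh to -0.035, and moved Ctss to 0.05 and Ctsd to -0.68. Without flox 1 the value of Ctsd was -0.76 and that of Ctsl -0.80, and without flox 3 that of Ctsd was -0.045.

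CKO 2 was the highest library for 7 of the 9 abundant members (all but Ctsd and Ctsl), and CKO 1 the lowest for 6 of 9. Between CKO 2 and CKO 3, the libraries of a shared code, all 9 were higher in CKO 2, with a median absolute log2 difference of 0.62. Over the 1547 genes of 100 CPM or more 64.5% were higher in CKO 2, and the median absolute difference was 0.25. Between flox 2 and flox 3, the other shared code, 5 of 9 members were higher in flox 2, as were 57.5% of the same 1547 genes. The median absolute log2 difference was 0.23 over the members, beside 0.18 over these genes.

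**Figure D4:**
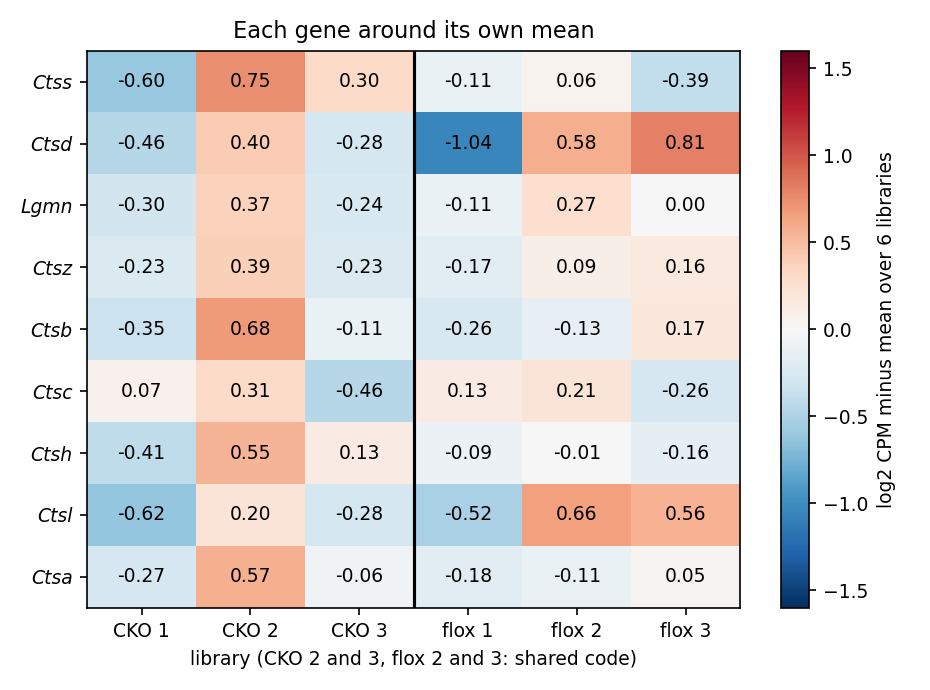
Log2 CPM of the 9 abundant genes in each library minus the gene's mean over the 6 libraries (3 CKO columns, then 3 flox columns). The CKO 2 column is positive for all 9 genes (0.20 to 0.75), and Ctsd has the widest span, -1.04 in flox 1 to 0.81 in flox 3.

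The ratios of CKO over flox were also taken within each haemoglobin class. Within the haemoglobin-negative libraries (CKO 2 and CKO 3 over flox 1) 8 of 10 members had a positive log2 ratio, with a median of 0.46, beside 0.02 over all genes tested. Within the haemoglobin-positive libraries (CKO 1 over flox 2 and flox 3) 8 of 10 were negative, with a median of -0.36, beside -0.00387 over all genes. Ctsd had log2 ratios of 1.14 and -1.16 in the negative and positive class, Ctsl 0.50 and -1.22, and Ctss 0.65 and -0.45. For 6 members (Ctsa, Ctsb, Ctsd, Ctsh, Ctsl and Ctss) every CKO library lay above flox in the negative class and below flox in the positive class, as it did for 1748 of the 13477 tested genes (13%). Ctsk showed the reverse, as did 12.1% of all tested genes.

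The difference between these within-class contrasts was tested as an interaction, whose residual spread comes only from CKO 2 and CKO 3 and from flox 2 and flox 3, since CKO 1 and flox 1 are single libraries in their class. These pairs share a code, so the test holds no spread between mice if each pair is 1 mouse, and its p-values cannot then be read as evidence of a class effect. For Ctsd it was -2.30 (log2, adjusted p = 0.738), for Ctsl -1.72 (adjusted p = 0.844) and for Ctss -1.11 (adjusted p = 0.846, edgeR with Benjamini-Hochberg adjustment). The test called 0 members and 0 of 13477 genes (0.00%). At an unadjusted p under 0.05 it held 4 of the 10 members (Ctsd, Ctsl, Ctss and Ctsk) and 768 genes, or 5.70%. Since each class holds 1 description code per label, a class effect and a difference between individual mice cannot be told apart.

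**Figure D5:**
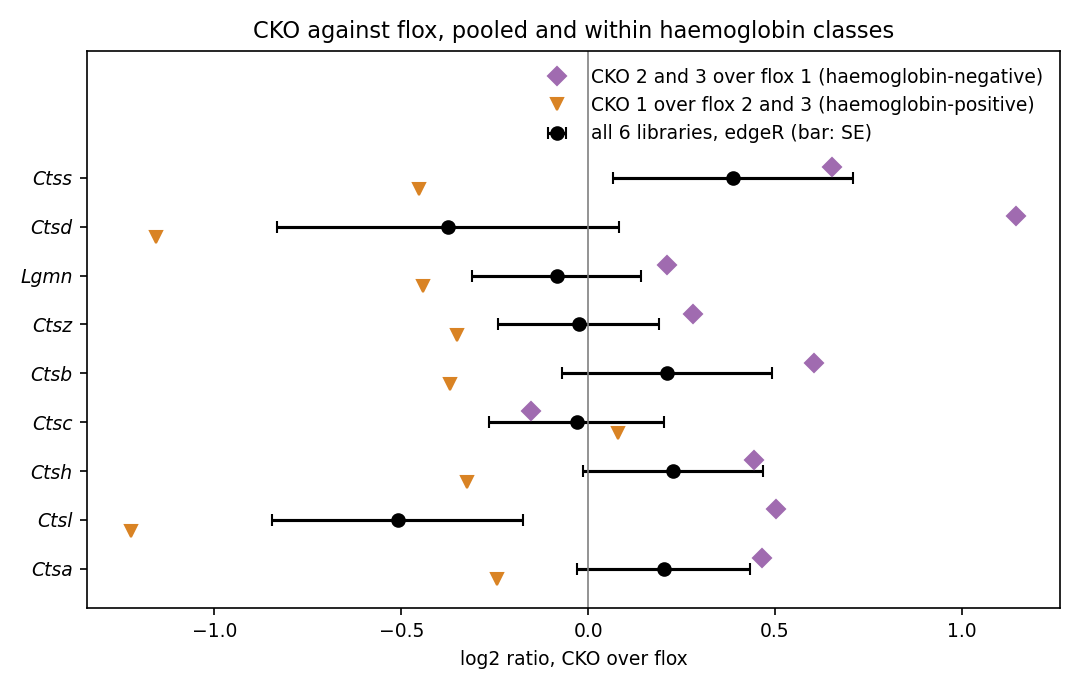
Log2 ratio of CKO over flox for the 9 abundant genes: edgeR fold change over all 6 libraries (black, bar SE), CKO 2 and CKO 3 over flox 1 (diamonds) and CKO 1 over flox 2 and flox 3 (triangles). Diamonds lie right and triangles left of 0 for 8 genes, Ctsc being the exception.

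Of 11 genes for endogenous inhibitors 7 were tested, 4 positive and 3 negative, and 0 passed. Cst3, which encodes the secreted inhibitor cystatin C, stood at 5334, 7443 and 7283 CPM in CKO, against 5459, 5989 and 5749 CPM in flox, a log2 fold change of 0.22 (SE 0.18). The ratio of Ctss to Cst3, both per kb, was 0.779, 1.42 and 1.07 in CKO, against 1.07, 1.10 and 0.837 in flox, and the groups overlapped. Cstb, which encodes the cytosolic inhibitor cystatin B, stood at 389, 529 and 558 CPM in CKO, against 477, 313 and 444 CPM in flox. Cst7, which encodes cystatin F, an inhibitor that acts inside lysosomes of immune cells, stood at 88.6, 35.4 and 43.4 CPM in CKO, against 15.4, 57.1 and 84.8 CPM in flox, and its 5.75-fold range cut across both labels. Cst6, which encodes cystatin M, had 35, 12 and 34 counts in CKO against 0, 1 and 13 in flox (log2 fold change 2.51, SE 1.32, adjusted p = 0.9996, edgeR), and in CPM its groups did not overlap. This held for 1 of the 7 tested inhibitors and for 8% of all tested genes.

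Most other cathepsins were not detected. Of 14 such genes 5 were tested and 9 had no count in any library, among them the placental cathepsins and the neutrophil gene Ctsg. Napsa, an aspartic protease gene, stood at 47.3, 228 and 112 CPM in CKO, against 127, 44.8 and 52.8 CPM in flox. Ctso stood at 32.2, 48.7 and 46.3 CPM in CKO, against 37.2, 34.7 and 35.8 CPM in flox, and Ctse, which encodes an aspartic protease of immune cells, at 3.86, 17.8 and 14.3 CPM in CKO, against 5.28, 9.90 and 5.25 CPM in flox. The CKO and flox ranges overlapped for all 3, and 0 of the 5 tested passed in either direction.

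Genes of delivery and regulation did not pass either. Among 11 sorting genes, 6 positive and 5 negative, the lowest unadjusted p belonged to Igf2r, the cation-independent mannose 6-phosphate receptor, at 4.29, 1.09 and 1.80 CPM in CKO, against 3.39, 5.39 and 6.70 CPM in flox. Sort1, the sorting receptor sortilin, stood at 16.5, 9.04 and 14.4 CPM in CKO, against 9.64, 21.8 and 26.5 CPM in flox, and the adaptor gene Gga1 at 16.9 ± 5.36 against 13.3 ± 0.209 CPM (CKO against flox, SD, n = 3 each). Among 6 regulators Tfeb, the main transcription factor of lysosomal genes, stood at 8.09, 12.2 and 13.8 CPM in CKO, against 12.5, 10.4 and 8.22 CPM in flox. Its relative Tfec stood at 3.56, 9.46 and 7.61 CPM in CKO, against 1.94, 2.64 and 2.66 CPM in flox, with no overlap (log2 fold change 1.51, SE 0.48, unadjusted p = 0.0131, adjusted p = 0.9996, edgeR). Groups did not overlap for 1 of the 6 regulators and for 8% of all tested genes. Tfe3 stood at 35.6 ± 9.11 against 29.9 ± 3.63 CPM and the lysosomal calcium channel gene Mcoln1 at 30.3 ± 3.44 against 24.9 ± 4.80 CPM (CKO against flox, SD, n = 3 each).

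Genes that work with the cathepsins in antigen processing had positive fold changes in 5 of 5, with a median of 0.64, and 0 passed. Cd74, the invariant chain that Ctss cuts, stood at 4486, 18282 and 12022 CPM in CKO, against 9463, 3448 and 4086 CPM in flox (log2 fold change 1.03, SE 0.56). H2-DMa and H2-DMb1, subunits of the peptide exchanger of MHC class II, stood at 497 ± 131 against 342 ± 98.7 CPM and at 314 ± 142 against 201 ± 80.1 CPM (CKO against flox, SD, n = 3 each). Ifi30, the lysosomal thiol reductase, stood at 642 ± 106 CPM in CKO against 566 ± 42.2 CPM in flox. As for Ctss, CKO 2 and CKO 3 were the 2 highest libraries for Cd74. All haemoglobin-negative libraries, flox 1 included, lay above all haemoglobin-positive ones for Cd74, H2-DMa and H2-DMb1, but not for Ifi30 or Ctss. Log2 ratios of CKO over flox in the negative and positive class were 0.68 and 0.25 for Cd74 and 0.34 and 0.32 for H2-DMa. They were 0.41 and 0.04 for H2-DMb1 and 0.32 and -0.04 for Ifi30. Monocyte markers (6 of 6 in the table) summed to 247, 459.0 and 460.0 CPM in CKO, against 306, 175 and 134 CPM in flox, with positive log2 fold changes for all 6. Of these 4 had an unadjusted p under 0.05 (edgeR), beside 2.81% of all tested genes, and 0 passed. Border macrophage markers (6 of 6) summed to 759, 1810.0 and 1380.0 CPM in CKO, against 985, 703 and 589 CPM in flox. That sum was mostly Ms4a7, at 417, 1690.0 and 1240.0 CPM in CKO against 760.0, 394 and 437 CPM in flox, and the other 5 markers had negative log2 fold changes (median of all 6, -0.34). Both marker sums, like Cd74, were higher in every haemoglobin-negative than in every haemoglobin-positive library. The part of these markers in the levels of the antigen processing genes was not tested.

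Among the other peptidases and partners no gene passed. Among 5 lysosomal peptidases 4 were positive and 0 passed, and Cpq, a carboxypeptidase gene, stood at 33.8, 79.6 and 63.9 CPM in CKO, against 51.8, 29.7 and 21.8 CPM in flox. Prcp stood at 95.4 ± 26.1 against 78.97 ± 6.05 CPM and Scpep1, both serine carboxypeptidase genes, at 96.7 ± 30.1 against 89.9 ± 16.9 CPM (CKO against flox, SD, n = 3 each). The Ctsa partners Neu1 and Glb1 stood at 54.1 ± 10.8 against 46.5 ± 4.37 CPM and at 40.4 ± 8.13 against 40.05 ± 10.5 CPM (CKO against flox, SD, n = 3 each). Of 6 granule proteins, 5 of them serine proteases that Ctsc can activate, Elane, Ctsg and Mpo had no count. Prtn3, proteinase 3, had 34, 43 and 97 counts in CKO against 26, 16 and 6 in flox (2.08, 3.60 and 4.99 CPM in CKO against 1.26, 0.829 and 0.379 CPM in flox, with no overlap, unadjusted p = 0.0148, adjusted p = 0.9996, edgeR). It was 1 of 3 tested genes of this list, and 8% of all tested genes had no overlap. Gzma and Gzmb, the granzyme genes, ranged over 0 to 104 CPM and 4.22 to 93.3 CPM across the libraries.

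The 5 genes whose pattern over the 6 libraries lay nearest to the mean pattern of the 9 abundant members were Camk1, Glmp, Hpgds, Lamp2 and Sh3glb1. The distance was Euclidean, on log2 CPM centred on each gene's mean, among 1541 other genes of at least 100 CPM, and ran from 0.115 for Camk1 to 0.195 for Sh3glb1. Lamp2, which encodes a lysosomal membrane protein, stood at 359.8, 627 and 439.7 CPM in CKO, against 421, 589 and 514 CPM in flox. Glmp, which encodes another, stood at 135, 234 and 155 CPM in CKO, against 134, 192 and 197 CPM in flox. CKO 2 was the highest library for all 5 genes, as for most members, which largely follows from choosing them by this pattern.

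Strand and shared sequence limit some of these values. The strand setting of the counting is not given in the sources used here, and Ctsa shares 495 exonic bases with Pltp and 324 with Neurl2 on the opposite strand, Ctsb shares 774 with Fdft1, and Ctsd shares 808 with Gm49369 on its own strand (GENCODE M21, GRCm38). Ctsl shares 1742 exonic bases with the antisense gene Gm47123 and 395 with the pseudogene Gm49230 on its own strand, both not analysed here. Over all 6 libraries the other partners had 4606, 427, 3364 and 104 counts (Pltp, Neurl2, Fdft1 and Gm49369).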

How the data were processed

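RNA-seq of 6 sorted-cell libraries was used, grouped by title. The submitters' processing notes name fastp 0.18.0, HISAT2 2.2.4 and the build mm10. How reads were counted, and on which annotation and strand, is not given in the sources used here. The deposited table holds unscaled estimated counts by gene symbol. Of its 21956 rows, 83 without a symbol were left out (0.0122% to 0.0185% of counts) and 22 rows of repeated symbols were summed. Counts were rounded to whole numbers. Library totals ran between 13462691 and 20018940 counts, over 15174 to 16096 detected genes.

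The test was edgeR 4.0.16 (R 4.3.3): TMM scaling, its default low-count filter, the robust quasi-likelihood test with the label as the only term, and Benjamini-Hochberg adjustment over all genes at 0.05. SE is the fold change over the root of its F. Reads are not independent molecules. Alternatives were 3 other scalings, 2 other filters, DESeq2 1.42.0, limma 3.58.1 (voom), shared codes summed or linked, the title number as a block, haemoglobin class (over 100 CPM) as a term, and each library left out; the interaction and the exon-union length were added after seeing the data. No label says that libraries of a group came from separate animals, so p-values measure only the spread between these libraries, which may be technical. Lengths are those of the shortest GENCODE M21 principal transcript. The members, lists and tests were chosen with earlier results of these data known. Named genes were all members, up to 3 genes of smallest p per list, 6 fixed genes and the 5 nearest patterns. Fcrls was not among the symbols. The tests were tried on simulated data.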

Additional observations from a re-analysis of the deposited data

How the results depend on the processing

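No member was called under any of the 17 alternatives (smallest adjusted p 0.564), and 154 of 169 member values kept their sign. The sign turned for Ctsk with voom sample weights (-0.082) and with single libraries left out, over which the log2 fold change ran from -0.087 to 0.36 for Ctsa, -0.16 to 0.41 for Ctsb, -0.21 to 0.16 for Ctsc, -0.035 to 0.44 for Ctsh, -1.14 to 1.70 for Ctsk, -0.26 to 0.080 for Ctsz and -0.33 to 0.036 for Lgmn. The cause was not tested. Ctsd (-0.76 to -0.045), Ctsl (-0.80 to -0.31) and Ctss (0.050 to 0.68) kept their sign in these fits, but with the haemoglobin class as a term Ctsd stood at -0.0061. The ratios within each haemoglobin class are not counted among these alternatives. There 8 of the 10 members were positive in the negative class and 8 were negative in the positive class. Over all genes edgeR called 0, DESeq2 23 and edgeR with the haemoglobin class as a term 2. The members' median ran from -0.19 to 0.20 with single libraries left out and was -0.043 with voom sample weights. With library totals only, the median of all genes was -0.12 and that of the members -0.06. Title numbers did not pair the libraries (correlations of deviations -0.32, 0.00509 and -0.33), and with the title number as a replicate block the members' median was -0.01, with 0 members and 0 genes called. Depth limits only Ctsk, which had 1 to 47 counts a library.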
